A study of Drosophila melanogaster with 3 samples.

Results

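Mediator is a large complex that carries signals from DNA-bound transcription factors to RNA polymerase II (Pol II) at the core promoter. Its subunits fall into a head and a middle module that contact Pol II, a tail that contacts transcription factors, and a separable kinase module around Cdk8. MED14 runs through the core and joins its modules. The genes of this complex were taken as the protein-coding genes of the Ensembl fly annotation whose symbol is MED with a number, plus kto, skd, CycC and Cdk8, and this gave 29 of the 13945 protein-coding genes on the chromosomes covered. The subunit gene ix, the fly counterpart of MED29, falls outside that rule and is given only for its value.

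The data are maps of the zinc finger protein putzig (pzg) on chromatin, made by chromatin immunoprecipitation and sequencing (ChIP-seq) in whole Drosophila melanogaster embryos. In flies putzig acts together with Trf2, a relative of the TATA-binding protein, and with the sequence-specific factor Dref, and it also works with the chromatin remodeller NURF. The embryos were of both sexes and 0 to 24 h old, and came from a transgenic line with GFP at the C-terminus of putzig, so many cell types and hours of development are mixed. There are 3 biological replicates of 1 group and no contrast, and the libraries' free text names them as input controls, which conflicts with their assay and antibody fields. The libraries were treated as putzig ChIP-seq.

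Putzig was present at an annotated start of every one of the 29 Mediator genes. A gene was called bound when a summit of the authors' reproducible peak list, which holds 6522 summits, lay within 250 bp of one of its annotated transcription start sites (TSSs). By that rule 29 of 29 members were bound, and the same rule called 42.6% of all protein-coding genes. Each member had its own summit, so no summit was counted for more than 1 of them. The summit of 28 members (96.6%) was found in all 3 replicates, and MED26 was the exception. That call held for 90.3% of all bound protein-coding genes and for 38.4% of all protein-coding genes. The members lay on all chromosomes covered, 12 of them on 3L, 8 on 3R, 4 on 2R, 2 each on 2L and X and 1 on chromosome 4.

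The strength of putzig at these genes was ordinary. The members had a median peak signal of 1683 (range 691 to 4354), against 1517 at all 5939 bound protein-coding genes (range 235 to 15079). The signal is the authors' own value per peak on an unnamed scale, and it is used here only within a list. Expressed as a percentile among all bound protein-coding genes, the median member stood at 50.3 in replicate 1, 46.1 in replicate 2 and 56.8 in replicate 3, or 51.0 ± 5.39 (SD, n = 3). Of the 29 members 15 lay above the midpoint, 2 lay in the top 10% and 0 in the bottom 10%. With only the peaks above the median signal of the reproducible list, 19 of the 29 members were bound. Of the 5939 bound protein-coding genes 3950 had such a summit, which is 28.3% of all protein-coding genes.

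Summits of the members sat just upstream of the start. The median summit was 30 bp upstream of the nearest TSS of its gene, and the summits of 26 of 29 members (89.7%) were upstream, against 86.4% of all bound protein-coding genes. Of the members 21 (72.4%) had the summit within 50 bp of the TSS, against 53.7% of all bound genes. By annotation 24 summits were intergenic and 4 lay in the 5′ UTR of the member itself, those of MED6, MED8, MED15 and skd. That of MED6 lay 9 bp upstream of an internal start, and no reproducible summit lay within 250 bp of the gene's 5′ end. The remaining summit, at MED26, lay in an intron of that gene, also upstream of an internal start.

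The DNA under the summits held either of a pair of housekeeping promoter elements at 16 of the 29 members (55.2%), against 31.7% of all coding-gene summits. The DNA replication-related element (DRE), TATCGATA, is the site that Dref recognises, and it lay within 100 bp of the summit at 8 members (27.6%), against 17.4% of all 4772 summits at coding-gene starts and 7.84% of windows of the same length at the 5′ ends of all 13945 protein-coding genes. Motif 1, searched as GGTCACAC, is another element of such promoters, and it lay in the window of 9 members (31.0%), against 16.1% of all coding-gene summits and 6.76% of the 5′ ends. Both strands were searched. MED8 was the only member with both elements, and the 85 summits with both made up 1.78% of all coding-gene summits. With 50 bp to each side the counts were 4 members for the DRE and 5 for Motif 1, against 13.2% and 11.2% of all coding-gene summits. These are descriptions of letters in a window, without a test.

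The DRE sites are shown because all of them lay upstream of the member's own start. The members' 9 DREs had their centres 7 to 185 bp upstream of the TSS, with a median of 47 bp upstream, and MED28 held 2 of them. Over all coding-gene summits 83.9% of DREs lay upstream of the start nearest the summit. The members' DREs were placed from the member's own start, also at MED9 and MED18, whose summits were nearer to a neighbour's start. The DREs of MED7, MED9 and MED18 and the distal one of MED28 were themselves nearer to the opposite-strand neighbour's start. That of MED9, 128 bp upstream, lay beyond the start of Nup75, which is 115 bp from that of MED9. Each run has 30 bases and reads 5′ to 3′ on the strand of the gene (dm6, from the RefSeq genome), with the DRE in capitals. Those of MED8 and MED9 are not printed.
MED17, chr3R:18189034-18189063, plus strand: gagcactcattTATCGATAgccggccgcag
MED18, chrX:1865833-1865862, plus strand: acgttcatcgtTATCGATAgactatttgat
MED26, chr4:787635-787664, minus strand: acgtgaaagtaTATCGATAataattgttaa
MED7, chr3R:10761203-10761232, minus strand: cacctttaagtTATCGATAgctaggcacgg
MED25, chr3R:20008925-20008954, plus strand: cataagttgacTATCGATAgcagcagagcg
MED28, distal site, chr3R:25476915-25476944, plus strand: gcgattaaggcTATCGATAtatagcgctta
MED28, proximal site, chr3R:25476950-25476979, plus strand: ttctaattcatTATCGATAagtcgtcggta
The element reads the same on both strands, so it has no orientation. The MED18 site lay 61 bp upstream of the start, that of MED17 23 bp upstream, and that of MED25 7 bp upstream.

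Motif 1 sat at the start itself. Of its 9 sites at Mediator genes 8 had their centre within 25 bp of the member's own TSS. Over all coding-gene summits 54.5% of the 798 sites lay within 25 bp of the start nearest the summit. The 2 rules differ at MED20, whose summit was nearer to the start of Trf, 3 bp away. At MED15, MED19, MED20, MED23, MED24 and MED8 Motif 1 lay 9 to 21 bp downstream, inside the transcribed sequence. It lay 5 bp upstream at MED11 and 3 bp upstream at MED22. MED10 was the exception, with the site 63 bp upstream of its start and on the other strand. PDCD-5 starts 46 bp upstream of MED10 on that strand, so the site lay downstream of the PDCD-5 start and read along with PDCD-5. At 8 of the 9 sites Motif 1 overlapped CAGTGTGA on the opposite strand, so those letters are not a separate element. The sites are printed in the same way, with Motif 1 in capitals, except those of MED8 and MED23.
MED11, chr3L:18745836-18745865, plus strand: tctcgtgttctGGTCACACtgttatctggt
MED20, chr2L:8072823-8072852, minus strand: aagtcagcactGGTCACACtggacgctttt
MED22, chrX:928121-928150, plus strand: ggaaaatacgtGGTCACACtgtacatataa
MED10, chr3L:16232006-16232035, plus strand: gcgattgaacaGTGTGACCttgctattcct
MED19, chr3L:17846475-17846504, minus strand: tgtcgcaatgcGGTCACACtggttcgcgga
MED15, chr2L:473008-473037, plus strand: ttgcctgaaacGGTCACACtgtgctcagag
MED24, chr3L:8191276-8191305, plus strand: aaagatacctcGGTCACACtgagcgctgct
The 7 printed runs show the motif in one orientation at 6 genes, reading along with the gene, and reversed at MED10.

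**Figure D1:**
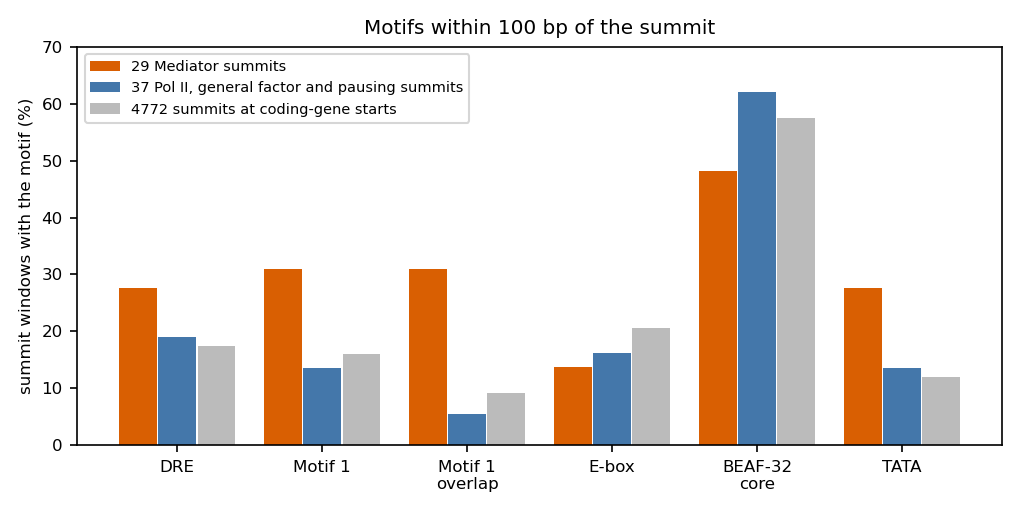
Percent of windows, reaching 100 bp either way from a summit and read on both strands, that hold each motif, for 29 Mediator summits, 37 summits of Pol II, general factor and pausing genes, and all 4772 summits at coding-gene starts, which include those sets. The DRE was in 27.6%, 18.9% and 17.4% of windows and Motif 1 in 31.0%, 13.5% and 16.1%; the bar named Motif 1 overlap is the sequence that overlaps it and is no separate element.

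The remaining motifs did not set the members apart in 1 direction. TATAAAA was in the window of 8 members (27.6%), against 12.0% of all coding-gene summits, and CGATA, which the insulator protein BEAF-32 recognises and which the DRE contains, in 14 (48.3%), against 57.5%. The TATAAAA share depended on the window: with 50 bp to each side it was at 1 member (3.45%), against 4.09%, and with 200 bp at 9 (31.0%), against 26.3%. The E-box CAGCTG was at 4 members (13.8%), against 20.6%. Neither Motif 7, CAGCGCTA, nor GAGAGAG was in any of the 29 windows, and these were in 0.650% and 2.43% of all coding-gene summit windows. The median window of the members held 36.8% G and C, against 38.8% for all coding-gene summits.

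Head module genes had the lowest median signal of the modules, 937 among the 7 of them. MED6, a subunit that faces Pol II, was apart from the rest with a signal of 4066, rank 368 of the reproducible list. Its summit had signals of 1756, 1622 and 705 in replicates 1, 2 and 3, at ranks 414, 353 and 358 of those lists of 30000 peaks. MED6 therefore held nearly the same place in each replicate, with a percentile of 91.5 ± 0.794 (SD, n = 3). MED20, which with MED8 and MED18 forms a flexible part of the head, followed with a signal of 1810 and percentiles of 58.4, 57.8 and 65.5 in replicates 1, 2 and 3. The other head genes lay below the midpoint of all bound genes in every replicate. MED17, the central subunit of the head, had a signal of 953 and percentiles of 28.9, 27.6 and 29.6, the closest agreement among these weaker genes. MED8 had a signal of 937 and a percentile of 33.3 ± 10.6 (SD, n = 3), and MED18 had 828 with percentiles of 19.6, 21.2 and 41.5. The signals of MED8 were 441, 363 and 188 and those of MED18 325, 319 and 173 in replicates 1, 2 and 3, and replicate 3 placed both higher than the other replicates did. MED11 and MED22, a pair that binds together in the head, had signals of 884 and 691, and MED22 was the weakest of all 29 members. Percentiles were 23.4, 31.2 and 21.4 for MED11. For MED22 they were 15.9, 18.7 and 33.3. A DRE or Motif 1 lay at 6 of the 7 head genes, all but the strongest, MED6, against 31.7% of all coding-gene summits.

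Middle module genes had the highest median signal of the modules in the reproducible list, 2158 among the 9. Of these 7 lay above the midpoint of all bound genes. The median percentiles of the module were 76.0, 68.6 and 62.9 in replicates 1, 2 and 3. In replicate 3 the kinase module came close, at 61.8, and the single scaffold gene MED14 stood higher, at 68.5. MED4, a core subunit of the module, had the strongest peak of any member with a signal of 4354 at rank 309. Its replicate signals were 2069, 1657 and 681, at ranks 252, 336 and 388. MED10 followed with 3760, MED19 with 3298 and MED9 with 3268. These 4 were the strongest members beside MED6 and kept high places in each replicate. MED10 had percentiles of 90.2, 87.9 and 90.8, MED19 had 82.9, 84.1 and 91.9 and MED9 had 82.0, 88.2 and 85.4. MED19 is known in flies as a partner of Hox proteins, and its promoter held Motif 1. MED7 and MED21, which form the hinge of the module, had signals of 2158 and 1861 and were less steady. MED7 stood at percentiles 76.0, 68.6 and 36.3 in replicates 1, 2 and 3, with signals of 1162, 875 and 154, and MED21 at 70.1, 45.6 and 62.9. MED1, the subunit that contacts nuclear receptors in mammals, had a signal of 1791 and percentiles of 61.6, 55.1 and 59.6. MED31 had 1174 and percentiles of 39.6, 32.2 and 49.0.

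MED26 was the only member whose call depended on the replicate. MED26 in mammals links Mediator to elongation factors, and the fly gene is the only member on chromosome 4. Its summit, 19 bp upstream of an internal start, had a signal of 886 at rank 3743. The summit lay in a peak of signal 403 in replicate 1 and 356 in replicate 2, at ranks 3713 and 3868, and in no listed peak of replicate 3. A second reproducible summit stood 437 bp downstream of the gene's first start, with a signal of 664, and it was found in all 3 replicates. Without replicate 1 or without replicate 2, MED26 was unbound and the other 28 members were bound, against 39.0% and 39.1% of all protein-coding genes. Replicate 3 missed other genes of chromosome 4 as well. Of the 47 bound genes there 27 had their summit in one of its peaks, against 5710 of all 5939 bound protein-coding genes.

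The scaffold gene MED14 was close to the middle of the distribution. It had a signal of 1773, a summit 26 bp upstream of its start, and percentiles of 54.1, 55.3 and 68.5. Its window held no DRE and no Motif 1.

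Tail module genes split into 3 stronger and 5 weaker ones, with a median of 1299 among the 8. MED27, MED23 and MED30 had signals of 2803, 2634 and 2464. MED23, which receives signals from mitogen-activated transcription factors in mammals, was steady at percentiles of 74.9, 78.1 and 80.9. MED27 had percentiles of 85.2, 76.8 and 73.9, and MED30 had 73.0, 80.7 and 60.0. The weaker genes had signals between 976 and 1388. MED16 had a signal of 1388 and percentiles of 50.3, 46.1 and 33.5, and MED25, the target of the viral activator VP16 in mammals, had 1210 with percentiles of 41.8, 44.1 and 14.9. Replicate 3 placed both lower than the other replicates did. MED15, a receiver of several activators, had 1123 with percentiles of 32.1, 33.8 and 44.3. MED28 had 1063 with percentiles of 28.3, 38.1 and 39.9, and MED24 had 976 with percentiles of 26.1, 32.3 and 28.4. When MED27, MED28 and MED30 are placed in the head, as some structures do, the medians become 1008 for the head and 1210 for the tail. Among head, tail and kinase genes the head had the lowest median percentile in each replicate, though close to the tail in replicate 3. The order of tail and kinase was not stable. The median percentiles of the tail were 46.0, 45.1 and 42.1 in replicates 1, 2 and 3, against 39.5, 39.0 and 61.8 for the kinase module and 28.9, 27.6 and 41.5 for the head.

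The kinase module genes were all bound, with a median of 1332 among the 4. CycC, the cyclin of the module, had a signal of 1749 and percentiles of 56.1, 53.8 and 67.8. kto, the fly MED12, had 1683 and percentiles of 49.7, 58.7 and 66.8. These 2 genes lay near the midpoint of all bound genes. Cdk8, the kinase, had 981 with percentiles of 29.3, 24.2 and 43.8, and skd, the fly MED13, had 778. The signals of skd were 262, 279 and 243 in replicates 1, 2 and 3. This gene changed place most of all members, with percentiles of 14.8, 17.3 and 56.8 in replicates 1, 2 and 3 and ranks of 4596, 4426 and 2157. Its summit lay 30 bp downstream of the start. None of the 4 kinase genes had a DRE or Motif 1 within 100 bp of the summit, against 31.7% of all coding-gene summits. TATAAAA was in the window of 3 of them, against 12.0%, and the E-box in that of 2, against 20.6%. With 50 bp to each side TATAAAA was at 0 of the 4, against 4.09%.

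**Figure D2:**
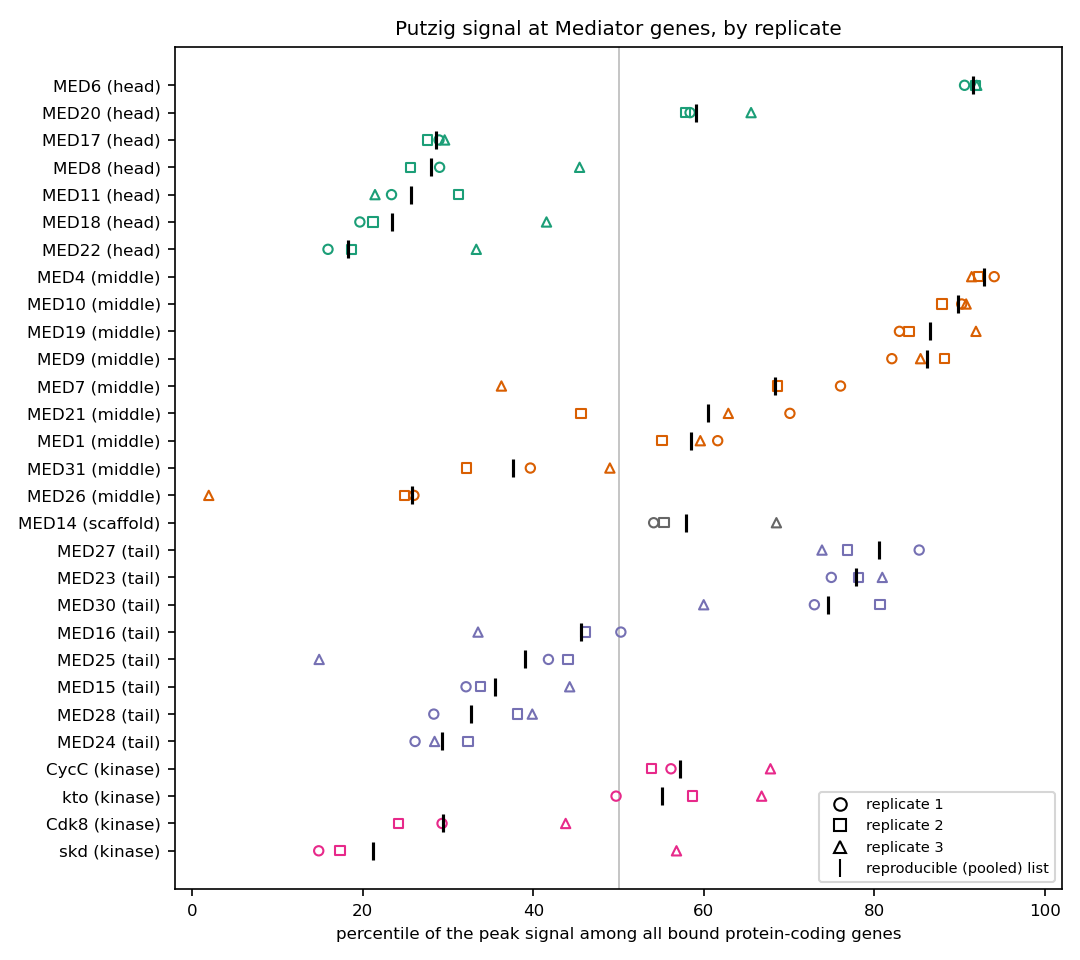
Percentile of each Mediator gene's peak signal among the 5939 bound protein-coding genes, in replicate 1 (circles), replicate 2 (squares), replicate 3 (triangles) and the reproducible list (bars), with genes ordered by module and signal. MED4 and MED6 stay above 90 in every replicate, whereas replicate 3 sets MED7 and MED25 lower and skd higher than the other replicates; MED26, with no peak of replicate 3 at its summit, is drawn at 1.93.

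The replicates differed most in comparisons with replicate 3. Across the members Spearman's rho of the signals was 0.94 between replicates 1 and 2 (29 genes), 0.78 between 1 and 3 and 0.76 between 2 and 3 (28 genes each). The same values over all bound protein-coding genes were 0.98, 0.90 and 0.90. These describe genes that share the libraries. The peaks that held the members' summits had a median width of 353, 493 and 198 bp in replicates 1, 2 and 3, so replicate 3 was called in narrower peaks, and the part of width in the differing places was not tested. When intervals had to overlap by 50% of each, 13 of the 29 members were found in all replicates (44.8%), against 51.4% of all bound protein-coding genes. Such a match in replicate 3 was missing for 16 members (55.2%), against 44.3% of all bound genes.

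Many Mediator genes share their promoter with a neighbour. A start on the opposite strand lay within 500 bp upstream of 20 of the 29 members (69.0%), against 51.9% of all bound and 29.6% of all protein-coding genes. At 15 members (51.7%) the same summit also lay within 250 bp of a start of another gene, against 41.4% of all bound protein-coding genes. The trait is not particular to Mediator. Among the 37 bound Pol II, general factor and pausing genes, 59.5% had such an opposite-strand start and 51.4% such a shared summit. Such a summit cannot be assigned to either gene. The 15 members with a shared summit had a median signal of 2158 (range 691 to 4354), against 1052 (range 778 to 3298) for the 14 without. All bound genes showed the same order, with 1810 for shared and 1295 for unshared summits. The difference between the percentiles was present in each replicate, at 73.0 and 30.7 in replicate 1, 68.6 and 33.1 in replicate 2, and 65.5 and 44.8 in replicate 3.

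The neighbours included other genes of basic cell functions. MED20 starts 47 bp from Trf, which encodes a relative of the TATA-binding protein, and the summit lay 44 bp from the start of MED20 and 3 bp from that of Trf. CycC starts 26 bp from UQCR-C1, a subunit of respiratory complex III. MED10 starts 46 bp from PDCD-5, and the internal start of MED6 lies 19 bp from Naa80. MED9 starts 115 bp from Nup75, a nuclear pore gene, and 28 bp from CG42518 on its own strand. MED31 has the same start as slx1, a nuclease gene on the same strand, and lies 125 bp from CG9775. MED23 starts 71 bp from Gmer, MED18 74 bp from Gcna, MED28 88 bp from CG4553 and MED22 164 bp from CG43867. The only non-coding neighbour was the antisense RNA CR43470, 113 bp from MED4.

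The widest shared promoters carried the summits farthest from the members. MED16 and CG11170 start 259 bp apart, MED30 and the translesion polymerase gene Rev1 274 bp apart, and both MED7 with the condensin gene Cap-H2 and MED27 with elm 278 bp apart. The summits lay 105, 171, 110 and 213 bp upstream of MED16, MED30, MED7 and MED27, and these were the only 4 members with a summit over 100 bp from the start. The MED27 summit was 65 bp from the start of elm and the MED30 summit 103 bp from that of Rev1, nearer than to the member. The summits of MED9, MED18 and MED20 were also nearer to the neighbour. When a summit counted for the gene of its nearest start alone, these 5 members were unbound and 24 were bound, against 36.1% of all protein-coding genes.

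The stretches between head-to-head starts are shown for 5 members as examples picked after their values were seen. They include the strongest member, MED4, and short promoters with a DRE and without one. The summit lay between the starts at all 15 opposite-strand pairs. The sequences read 5′ to 3′ on the strand of the Mediator gene, from the base after the neighbour's start to the base before the member's (dm6, RefSeq genome), lie outside all annotated exons, and have any DRE in capitals.
MED4 and asRNA:CR43470, chr3L:7250528-7250639, minus strand: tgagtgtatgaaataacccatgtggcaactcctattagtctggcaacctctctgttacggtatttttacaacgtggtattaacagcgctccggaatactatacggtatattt
MED20 and Trf, chr2L:8072849-8072894, minus strand: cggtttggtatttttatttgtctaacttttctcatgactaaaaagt
CycC and UQCR-C1, chr3R:14890206-14890230, minus strand: gccagtcagctgttcgtggaaaata
MED18 and Gcna, chrX:1865836-1865908, plus strand: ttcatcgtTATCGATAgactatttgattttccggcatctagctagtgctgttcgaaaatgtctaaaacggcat
MED28 and CG4553, chr3R:25476916-25477002, plus strand: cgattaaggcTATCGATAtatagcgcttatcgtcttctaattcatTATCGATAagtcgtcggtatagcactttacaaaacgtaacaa
MED4, with the strongest peak, has 112 bases and neither element, and the summit is at base 60. MED20 and Trf have 46 bases between them with the summit at base 3, and the Motif 1 of MED20 lies outside, in its transcribed part. CycC and UQCR-C1 have 25 bases with the summit at base 16. MED18 and Gcna share 73 bases and 1 DRE, with the summit at base 34, and MED28 and CG4553 share 87 bases and both DREs, with the summit at base 59. The stretches of MED4 and MED20 both hold GGTATTTT, a sequence searched for only after they had been read: it was in the windows of 3 members, these and MED19 (10.3%), against 9.01% of all coding-gene summits, a share near the background.

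**Figure D3:**
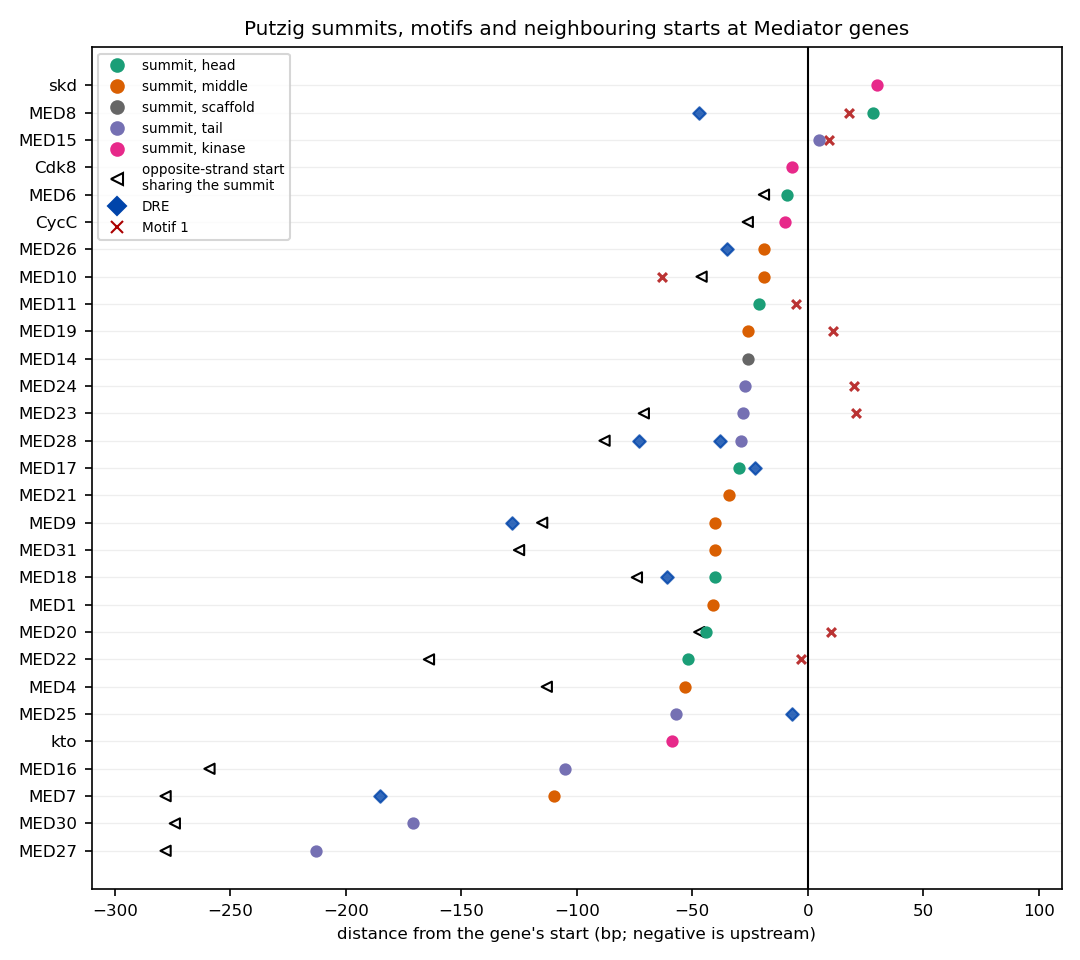
Distance in bp from the start of each Mediator gene (0, negative is upstream), an internal start at MED6 and MED26. Shown are the putzig summit (filled circle, coloured by module), opposite-strand starts that share the summit (open triangles), DREs (diamonds) and Motif 1 (crosses). Summits of 26 genes lie upstream, and every DRE lies upstream of the Mediator gene's own start. Motif 1 lies within 25 bp of that start at 8 of 9 sites. MED16, MED7, MED30 and MED27 have the most distant summits.

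The signal did not follow the motifs among the members. The 8 members with a DRE had a median signal of 1008, against 1773 for the 21 without, whereas over all coding-gene summits those with a DRE had 1639 and those without 1368. The 9 members with Motif 1 had a median of 1123, against 1716 for the 20 without, and all coding-gene summits had 1858 with and 1339 without it. The 13 members with neither element had a median of 1773 (range 778 to 4354) and included the strongest members, MED4 and MED6. These are descriptions of few genes and the differences were not tested.

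The gene ix, which encodes the tail subunit known as intersex and is the fly MED29, had no reproducible summit at its start. The nearest reproducible summit was 548 bp away and 5 bp from the start of san, the neighbour, with a signal of 726 and found in all 3 replicates. Within 250 bp of the start of ix the pooled list held a summit of signal 95.1, 73 bp downstream, with a q value of 0.0714 at rank 10894. Replicate 1 listed none there, replicate 2 one of signal 26.9 at rank 15205, and replicate 3 one of signal 68.2 at rank 5265 (q = 0.000665). In replicate 3 that peak was therefore among the 6522 strongest.

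Nearly all genes of the machinery that Mediator serves were bound as well. Of 38 genes for Pol II, the general transcription factors other than TFIID, and the pausing factors, 37 (97.4%) were bound, against 42.6% of all protein-coding genes. All 12 Pol II subunit genes, 16 of 17 general factor genes and all 9 pausing and release genes were bound. The strongest were Nelf-E, a subunit of the pausing factor NELF, with a signal of 8645, TfIIA-S, the small subunit of TFIIA, with 7884, and Polr2F, a Pol II subunit, with 5455. The 37 had a median signal of 1861 (range 408 to 8645), against 1683 for Mediator, 6 of them lay in the top 10% of bound genes, against 2 Mediator genes, and no test was made of the difference. The Nelf-E summit is shared with the ribosomal protein gene RpL14. The unbound gene was TfIIB, whose strongest pooled summit, 165 bp upstream of the start, had a signal of 170 (q = 0.00127) at rank 7499. Its own strongest summits within 250 bp had ranks 6592, 5264 and 4452 in replicates 1, 2 and 3. They lay at different places, 191 bp upstream, 52 bp upstream and 140 bp downstream of the start. Those of replicates 2 and 3 were thus among the 6522 strongest peaks of their lists. With a window of 500 bp TfIIB was bound, but the nearest reproducible summit was 365 bp from its start.

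**Figure D4:**
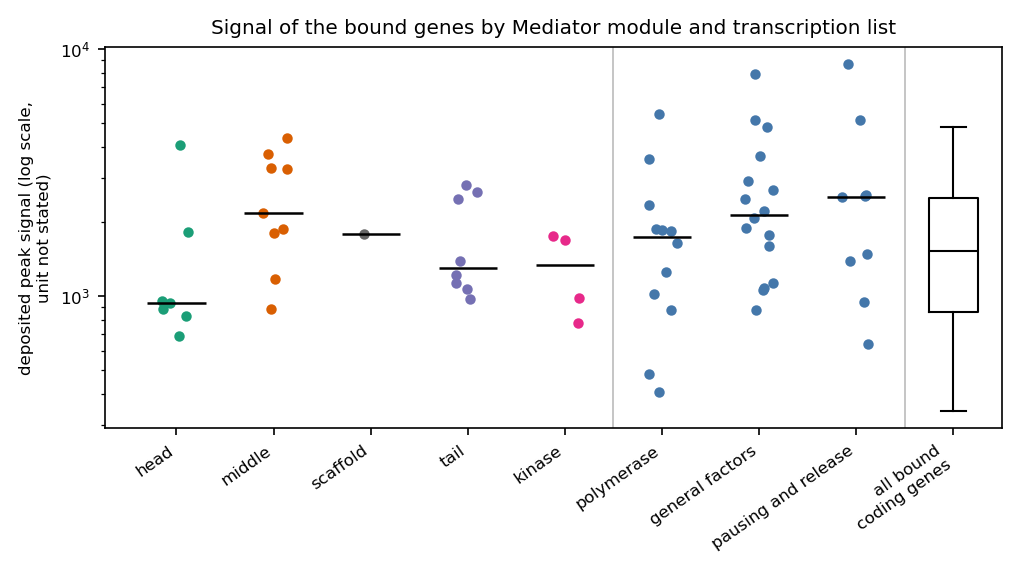
Deposited peak signal (log scale) of each bound gene by Mediator module, in the 3 transcription machinery lists and over all 5939 bound protein-coding genes (box of the quartiles with median, whiskers at 5% and 95%); points are genes and lines are medians. The middle module has the highest Mediator median (2158) and the head the lowest (937), and most Mediator genes fall within the box of all bound genes.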

How the data were processed

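The data are 5 deposited peak lists of putzig ChIP-seq in coordinates of dm6, 1 per replicate, 1 pooled and 1 thresholded by the irreproducible discovery rate (the reproducible list). Per the labels, chromatin was sonicated to 200 to 800 bp. Per the deposited file notes, replicate lists derive from each alignment and a shared control, and no source used here names the aligner or caller. The deposited peak signal has no stated scale and was used within a list. The deposited −log10 q value was turned into q and not used for ranking. Read depth is unknown, and precision rests on how far the replicates differ.

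TSSs came from Ensembl release 115, leaving out transposable elements. Sequence came from the RefSeq genome of the same build, in which 99.8% of 30593 annotated start codons read ATG. A summit was found in a replicate when it lay in one of its 6522 strongest peaks of 30000. Because the reproducible summits equal the top 6522 of the pooled list, their signals are not independent of the replicates. A gene with several summits took the strongest. Percentiles rank a gene's signal among bound genes, with a missing peak lowest. All members are reported, with the unbound and 3 strongest genes of a list of Pol II, general factor and pausing genes, and ix.

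The design has 1 group, so no test between groups exists, and none was made of the gene list. Members, lists and motifs were chosen with earlier results of these data known. The functions were tested on simulated data. Software was Python 3.11.15, pandas 2.3.3 and numpy 2.4.6. Alternatives covered the TSS window and assignment, the peak set, each replicate left out, the overlap rule, the motif window, the divergent distance and the modules.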

Additional observations from a re-analysis of the deposited data

How the results depend on the processing

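Between 24 and 29 of the 29 Mediator genes were bound under every alternative run except the use of only the peaks above the median signal. That left 19 members, against 3950 of the 5939 protein-coding genes bound in the main run. Without replicates 1, 2 and 3 in turn the count was 28 to 29, against 39.0%, 39.1% and 41.2% of all protein-coding genes. MED26 was lost where replicate 3 was needed. The 5′ end alone gave 27, without MED6 and MED26, against 40.6% of all protein-coding genes, and a TSS window of 100 bp gave 25, against 4882 of the 13945 protein-coding genes. When intervals had to overlap by 50% of each, 13 members (44.8%) were found in all replicates, against 51.4% of all bound genes. With 50 bp to each side, 4 members had a DRE and 5 had Motif 1, and with 200 bp 8 and 9, against 20.1% and 18.5% of all coding-gene summits. The tail held 5 genes with MED27, MED28 and MED30 in the head. Opposite-strand starts were at 15 members within 300 bp and at 22 within 1000 bp, against 20.1% and 39.6% of all protein-coding genes. In the reproducible list the members' median percentile was 55.1. With each replicate left out in turn, the members' percentiles averaged over the other 2 had a median of 52.4 to 56.1. The causes were not tested. Depth is unknown, so whether ix or TfIIB would pass at another depth cannot be told. No paired analysis was possible because the study has 1 group.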
